A study of Mus musculus with 8 samples.

Results

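The genes described here encode receptors through which macrophages and dendritic cells take up modified lipoproteins, and close relatives of those receptors. They were chosen by name: 8 gene symbols were looked up, 7 of them are among the 11756 genes of the table, and all 7 were tested. They are Msr1, Cd36, Scarb1, Scarb2, Lrp1, Cxcl16 and Cd68, while Olr1, which encodes the oxidized LDL receptor LOX-1, was not analysed here. The RNA came from cells positive for CD11c, an integrin of dendritic cells and some macrophages, that had been sorted by flow cytometry from the marrow of femurs and tibias of C57BL/6 mice. On culture day 6 the cells of 4 libraries were loaded for 24 h with acetylated low density lipoprotein (acLDL), and the cells of the 4 control libraries were left without it. No gene had been deleted or added in either group, and whether the replicate libraries stem from different mice or different dishes is not stated, so the p-values rest on a spread that could be technical only.

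Scavenger receptors bind lipoproteins whose protein part has been chemically changed, such as acLDL. They are not shut down when a cell fills with cholesterol, which is why a macrophage can turn into a lipid-laden foam cell in an atherosclerotic vessel. Class A receptors (MSR1) bind acLDL through a collagen-like stalk, class B receptors (CD36 and the products of Scarb1 and Scarb2) are hairpin proteins that cross the membrane at both ends, and LRP1, CXCL16 and CD68 belong to other families.

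Every value below is a normalized value from the authors' table, with library totals from 3917430 to 4385050. No tested gene passed an adjusted p of 0.05 in limma when the 4 acLDL libraries were compared with the 4 controls (0 of 10091 genes, 0%), while 1650 genes had an unadjusted p below that level. Quantile normalization gave 1 passing gene and limma without a variance trend or robust moderation gave 3, and 2190 genes (21.7%) passed when acLDL library 1 was left out. Libraries also differed in how well short messages were represented. An index, the mean log2 deviation of 489 tested genes with no coding transcript of 1000 nt or more, was -1.36, -2.25 and -0.30 in acLDL libraries 2, 3 and 4 and 0.06 in control library 1. It lay between 0.72 and 1.11 in the other libraries, among them acLDL library 1. Genes listed at 0 made up 18.5% and 21.9% of the table in acLDL libraries 2 and 3 and 5.63% to 11.96% elsewhere, so a gene listed at 0 there is not shown to be silent. Because acLDL libraries 2, 3 and 4 are the lowest in this index, the group and the index are partly confounded. The differences of the receptor genes are therefore given with and without the index as a covariate. With acLDL library 1 left out, every remaining acLDL library lies below every control in the index. Group and index cannot be told apart in that setting, so neither can they for the genes that pass in it.

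Msr1, the class A scavenger receptor that is the best known receptor for acLDL, was the receptor gene whose values did not overlap between the groups. They were 1449.9, 1475, 1639 and 1945 in acLDL libraries 1 to 4 and 1172, 1230.5, 1342 and 1169 in control libraries 1 to 4. All 4 acLDL libraries lay above all 4 controls, the nearest being acLDL library 1 and control library 3. Values without overlap were found for 569 of all tested genes, or 5.64%, and for 347 of them, or 3.44%, the acLDL libraries were the higher ones. They were the lower ones for 222, or 2.20%, and for none of the receptor genes. The means were 1627 ± 228 (SD, n = 4) and 1228 ± 81.2, a ratio of 1.32. On the log2(value + 5) scale used for all fold changes here, the difference was 0.40 (SE 0.16, 95% interval 0.025 to 0.77), with limma's adjusted p = 0.298. When the short-transcript index was added as covariate, the difference was 0.39 (95% interval 0.0025 to 0.78, limma's adjusted p = 0.986). In that fit 505 of the 10091 tested genes had an unadjusted p below 0.05 and none passed. The Msr1 difference lay between 0.31 and 0.45 when each library was left out, and with acLDL libraries 2 and 3 left out it was 0.45. The gene lies on chromosome 8 (39581685 to 39642673, minus strand, GRCm38), and its longest coding transcript has 3636 nt. Among tested genes of 3000 nt to under 5000 nt, 26.0% had a difference at least as high, so the size of the Msr1 difference was not unusual for genes of its length.

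**Figure D1:**
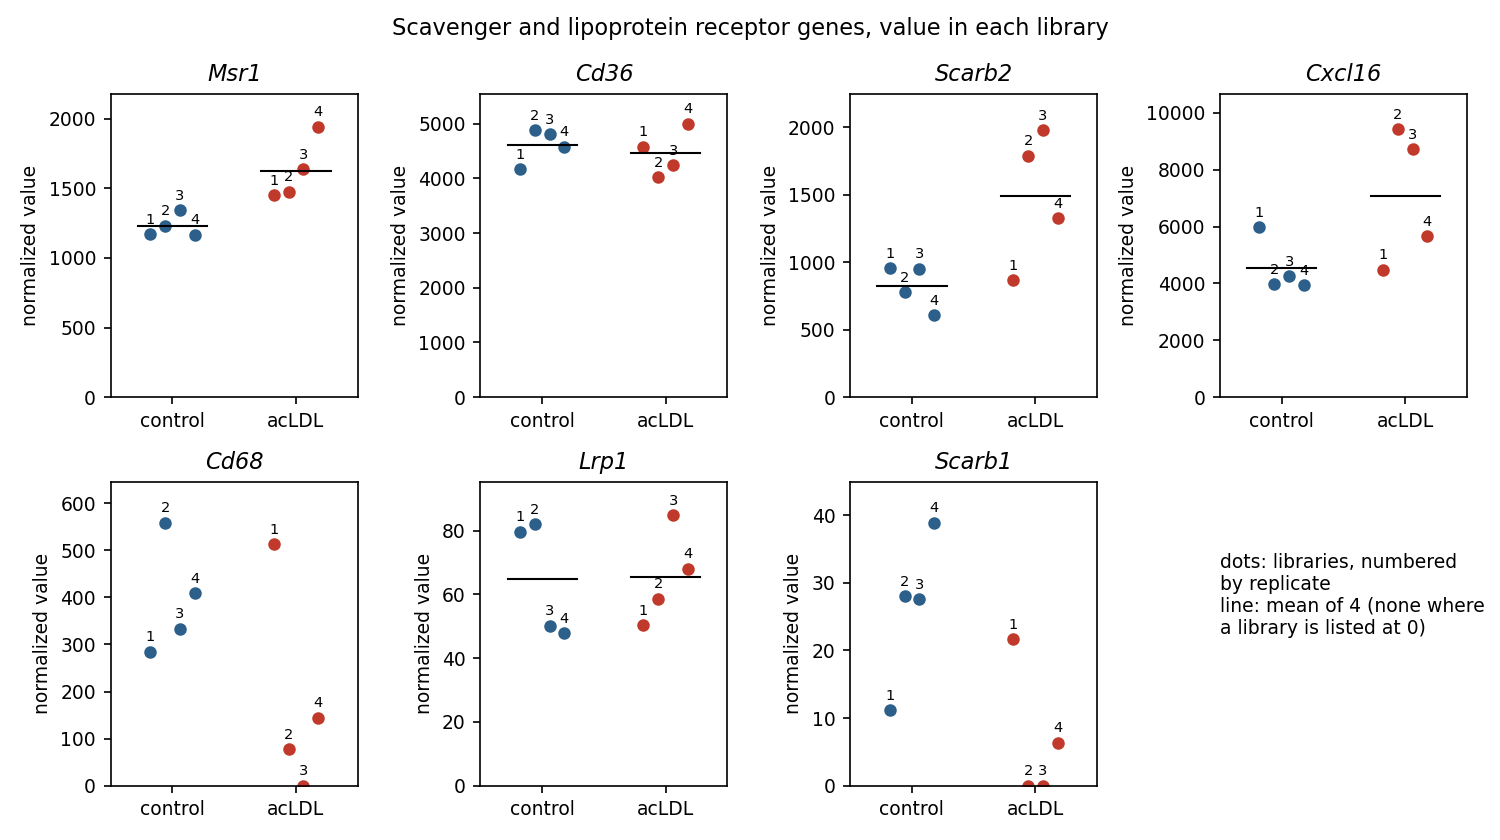
Normalized value of each receptor gene (vertical axis, starting at 0) in the control and acLDL libraries, 1 dot per library numbered by replicate, with the mean of 4 as a line where no library is listed at 0. The acLDL libraries lie above the controls for Msr1, while acLDL library 1 lies among the controls for Scarb2, Cxcl16, Cd68 and Scarb1.

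Cd36, the class B receptor for oxidized LDL and long-chain fatty acids, had similar values in both groups. They were 4576, 4017, 4237 and 4997 with acLDL and 4166, 4877, 4812 and 4575.5 in controls, so the groups overlapped over nearly their whole range. The difference was -0.05 (SE 0.15, limma's adjusted p = 0.849), with a 95% interval from -0.38 to 0.28. An increase or decrease larger than those bounds lies outside the interval, and a smaller one cannot be told from none. The sign turned with the covariate (0.05) and without acLDL libraries 2 and 3 (0.06). Cd36 (chromosome 5, 17781690 to 17888801, minus strand) has a longest coding transcript of 3399 nt. Its promoter is shown because CD36 is a textbook target of PPARγ, a lipid-activated nuclear receptor, and because its values were similar with and without lipid loading. The 250 bases before 1 of its annotated starts, from the RefSeq table (GRCm38.p6, chr5:17835897-17836146, minus strand), are printed 5′ to 3′ with capitals marking TGACCT, the hexamer repeated in the element that PPARγ binds (its reverse complement is AGGTCA).
Cd36: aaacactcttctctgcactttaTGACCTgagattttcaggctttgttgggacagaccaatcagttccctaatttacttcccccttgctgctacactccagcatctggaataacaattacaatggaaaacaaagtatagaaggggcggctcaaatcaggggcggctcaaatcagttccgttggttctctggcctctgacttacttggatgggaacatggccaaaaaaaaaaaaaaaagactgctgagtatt
The hexamer begins 228 bases before the start (position -228), and 14.0% of the 32851 promoter windows of this length hold it on either strand. The match is a description of these letters, and Pparg itself was not analysed here.

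Scarb2 encodes LIMP-2, a class B relative that sits in the lysosomal membrane and carries glucocerebrosidase there. Its values were 864.7, 1790, 1978 and 1325 with acLDL and 956.4, 775.8, 952.1 and 609.2 in controls. Libraries 2, 3 and 4 with acLDL were above every control, and acLDL library 1 was below control libraries 1 and 3. The difference was 0.81 (SE 0.29, 95% interval 0.15 to 1.46, limma's adjusted p = 0.298). It was 1.04 without acLDL library 1, where limma's adjusted p = 0.026 passed the threshold, as it did for 735 or 7.28% of all tested genes in the higher direction. With the short-transcript covariate it was 0.32 (95% interval -0.16 to 0.81), and without acLDL libraries 2 and 3 it was 0.40. The 4 libraries with the highest Scarb2 values, acLDL 3, 2 and 4 and control 1, are the 4 with the lowest short-transcript index, in the same order. Scarb2 (chromosome 5, 92441314 to 92506833, minus strand) has a longest coding transcript of 4698 nt, and 7.58% of tested genes of 3000 nt to under 5000 nt had a difference at least as high.

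Cd68 encodes another membrane glycoprotein of endosomes and lysosomes, also known as macrosialin and widely used as a macrophage marker, and its values went the opposite way. They were 512.7, 78.0, 0 and 144 with acLDL and 284.8, 558.5, 333.5 and 408.8 in controls. In acLDL libraries 2, 3 and 4 they were below every control, whereas acLDL library 1 was above 3 of the 4 controls. The difference was -2.37 (SE 1.19, 95% interval -5.07 to 0.33, limma's adjusted p = 0.304), and 0.01 with the short-transcript covariate (95% interval -1.51 to 1.53). It was -1.07 without acLDL library 3 alone and -0.49 without acLDL libraries 2 and 3, and without acLDL library 1 it was -3.30 (limma's adjusted p = 0.051). Because library 3 is listed at 0, the size depends on the pseudocount, at -2.97 with 1 and -1.82 with 20. The 4 libraries with the lowest Cd68 values are acLDL 3, 2 and 4 and control 1, again in the order of the index. Cd68 is the shortest of these messages, with 1230 nt (chromosome 11, 69664213 to 69666153, minus strand). Tested genes of 1000 nt to under 2000 nt had a median difference of -0.66, and 6.41% of them were at least as low as Cd68.

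The promoters of these 2 lysosomal genes are shown because acLDL libraries 2, 3 and 4 were above every control for Scarb2 and below every control for Cd68, although neither difference passed and that of Cd68 was near 0 with the covariate. Each is the 250 bases before the start in the RefSeq table (GRCm38.p6, minus strand), chr5:92505658-92505907 for Scarb2 and chr11:69666171-69666420 for Cd68, printed 5′ to 3′. Capitals mark any match, on either strand, to CACGTG, the core of the element through which TFEB family factors act on lysosomal genes, to GAGGAA, a core bound by the myeloid factor PU.1, or to TGACCT, the hexamer described above.
Scarb2: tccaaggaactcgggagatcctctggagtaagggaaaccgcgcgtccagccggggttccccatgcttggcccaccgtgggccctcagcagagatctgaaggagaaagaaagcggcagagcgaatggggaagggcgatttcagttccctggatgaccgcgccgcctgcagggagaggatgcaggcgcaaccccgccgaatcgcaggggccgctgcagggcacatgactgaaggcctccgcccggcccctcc
Cd68: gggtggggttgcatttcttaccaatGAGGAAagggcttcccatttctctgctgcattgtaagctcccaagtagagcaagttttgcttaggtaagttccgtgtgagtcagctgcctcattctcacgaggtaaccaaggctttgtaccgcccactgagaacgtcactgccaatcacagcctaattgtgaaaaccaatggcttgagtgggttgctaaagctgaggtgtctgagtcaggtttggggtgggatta
The Scarb2 window holds none of the 3 motifs, and the Cd68 window holds GAGGAA at position -225. The Scarb2 window lies inside the gene span given above, which begins at 92506833 on this strand. It therefore precedes the RefSeq start only, and the sequence before the other start was not searched. CACGTG occurs in 6.02% of all windows and GAGGAA in 23.3%. The windows differ in base composition, with 65.6% G and C for Scarb2 and 49.2% for Cd68.

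Cxcl16 encodes a chemokine that, while still anchored in the membrane, is a scavenger receptor for oxidized LDL and phosphatidylserine. Its values were 4490, 9434, 8718 and 5662 with acLDL and 5967, 3977, 4254 and 3930.5 in controls. The highest were acLDL libraries 2 and 3, and control library 1 exceeded acLDL libraries 1 and 4. The difference was 0.60 (SE 0.27, 95% interval -0.016 to 1.21, limma's adjusted p = 0.298). It passed the threshold without acLDL library 1, at 0.80 (limma's adjusted p = 0.042), as did 7.28% of all tested genes in the higher direction. It was 0.11 with the short-transcript covariate (95% interval -0.28 to 0.50) and 0.18 without acLDL libraries 2 and 3. The 4 libraries lowest in the index were the 4 highest in Cxcl16. Control library 1, lowest of the controls in the index, had the highest Cxcl16 and Scarb2 and the lowest Cd68 and Scarb1 of the 4 controls, with Scarb2 at 956.4 against 952.1 in control library 3.

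Cxcl16 lies on chromosome 11 (70453983 to 70459984, minus strand), its longest coding transcript has 2699 nt, and it overlaps Zmynd15 on the opposite strand. Of the 2669 31-base words in that transcript, 522 (19.6%) also occur in Zmynd15 transcripts, none of them in the last 500 nt, where a 3′ kit reads. Zmynd15 was listed at 28.1 in acLDL library 1, at 15.4 or less in 3 controls, and at 0 in the other libraries. The other tested receptor genes shared at most 0.493% of such words with other genes, and none in the last 500 nt.

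**Figure D2:**
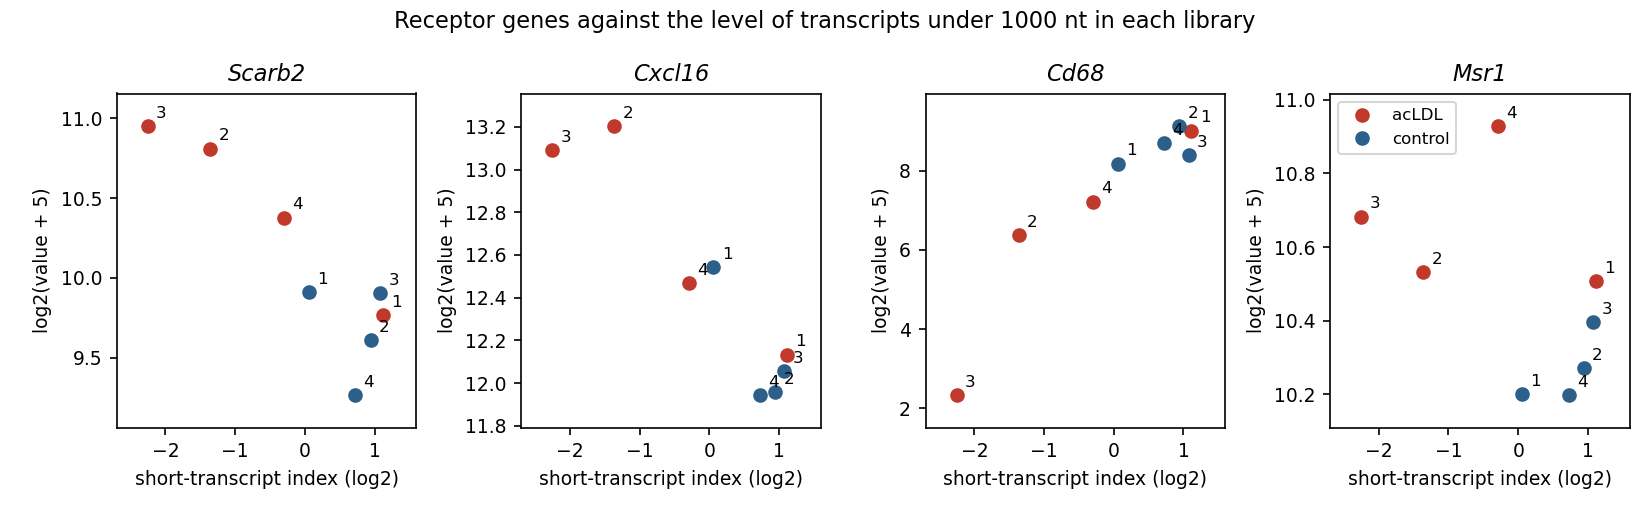
Level of 4 receptor genes, as log2(value + 5), against the short-transcript index of each library in log2 units, with acLDL libraries in red and controls in blue, numbered by replicate. Scarb2 and Cxcl16 are highest and Cd68 lowest at the low end of the index. For Msr1 the 4 acLDL libraries are above the 4 controls. In the index, acLDL libraries 2, 3 and 4 lie below every control, so only acLDL library 1 can be set beside controls of a like index.

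Scarb1 and Lrp1 had low values in all libraries. Scarb1 encodes SR-B1, the class B receptor that exchanges cholesterol with high density lipoprotein, and its values were 21.6, 0, 0 and 6.37 with acLDL and 11.2, 28.1, 27.5 and 38.9 in controls. The values of acLDL libraries 2, 3 and 4 were below every control, and that of acLDL library 1 was above control library 1. Scarb1 met the filter of 10 in at least 4 libraries through the controls, with only 1 acLDL library above it. The difference was -1.66 (SE 0.65, 95% interval -3.13 to -0.20, limma's adjusted p = 0.298), and -2.17 without acLDL library 1. It passed the threshold there (limma's adjusted p = 0.034), as did 14.4% of all tested genes in the lower direction. Leaving out library 1 drops the only acLDL value above 10, so nothing is read from that pass. The difference was -0.55 with the covariate (95% interval -1.71 to 0.62) and -0.76 without acLDL libraries 2 and 3. With a pseudocount of 1 it was -2.81 and with 20 it was -0.81, so its size is poorly fixed. Scarb1 (chromosome 5, 125277087 to 125341094, minus strand) has a longest coding transcript of 2521 nt.

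Lrp1, the large endocytic receptor that clears remnants and complexes of proteases with their inhibitors, had values of 50.2, 58.6, 84.8 and 68.1 with acLDL and 79.7, 82.1, 50.1 and 47.9 in controls. The groups covered nearly the same range. The difference was 0.025 (SE 0.30, limma's adjusted p = 0.963), with a 95% interval from -0.66 to 0.71, and its sign depended on the setting. Lrp1 (chromosome 10, 127538161 to 127621148, minus strand) has the longest message of the set, at 14888 nt. At these low values a change within the interval cannot be told from none.

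**Figure D3:**
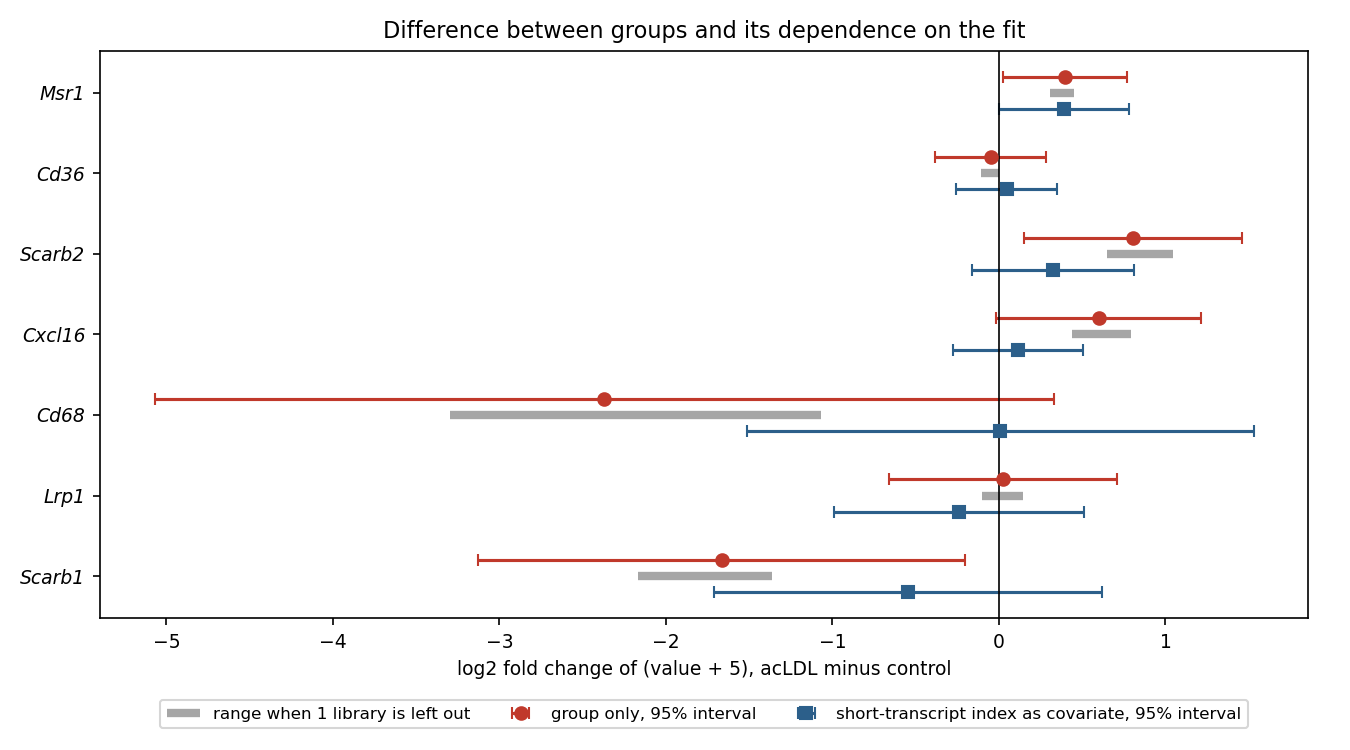
Difference between acLDL and control for each receptor gene, as log2 fold change of value + 5, from limma with the group only (red circle, 95% interval), as the range when each library is left out (gray bar), and with the short-transcript index as covariate (blue square, 95% interval). Msr1 keeps its value of about 0.4 in the fits with and without the covariate, while those of Scarb2, Cxcl16, Cd68 and Scarb1 move toward 0 with it.

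Counted together, 4 of the 7 receptor genes were higher and 3 lower with acLDL, with a median difference of 0.025, against -0.13 over all tested genes. In limma, Msr1 and Scarb2 had an unadjusted p below 0.05 in the higher direction, where 7.42% of all tested genes did. Scarb1 did in the lower direction, where 8.93% did (16.4% in either direction), but it met the filter through the group where it is high, so nothing is read from its count. After adjustment over all genes none of the 7 passed. The median of all genes moved from -0.13 to 0.13 after quantile normalization. Relative to that median, Msr1 was 0.52 higher as deposited and 0.23 higher after quantile normalization, Scarb2 0.93 and 0.65, and Cxcl16 0.73 and 0.34, while Cd68 was at -2.24 and -2.25. Cd36 turned from 0.077 to -0.28 on this relative scale. The 3 class B genes had differences of unlike size and sign. Within each library, the log2 ratio of Scarb2 to Cd36 averaged -1.64 ± 0.62 (SD, n = 4) in the loaded cells and -2.50 ± 0.34 in the controls. The ratio was -2.40 in acLDL library 1, inside the range of the controls, and -1.16, -1.10 and -1.91 in libraries 2, 3 and 4. This ratio does not depend on how the libraries were scaled, apart from the small pseudocount. It does follow the short-transcript index. Its 4 highest values were those of acLDL libraries 3, 2 and 4 and control library 1 (-2.12), in the order of the index. The difference of the ratio between the groups was not tested.

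Genes with a library profile most like that of a receptor gene were sought among all tested genes, by the root mean square difference of log2 values after centring each gene over the 8 libraries. Nearest to Msr1 were Ube2q1, a ubiquitin-conjugating enzyme gene (0.07), and Aldh9a1, an aldehyde dehydrogenase gene (0.07). Both were higher in all 4 acLDL libraries than in all controls, which is no separate result, since they were chosen for likeness to Msr1. Nearest to Scarb2 were Cog8 (0.08) of the Golgi tethering complex and Dbnl (0.08), an actin-binding adaptor gene. Nearest to Cxcl16 were the ribosomal protein gene Rplp2 (0.07) and Tcf25 (0.08), and nearest to Cd68 were Sh3bgrl3 (0.20) and Gm12953 (0.23). Scarb1 was most like Akap10 (0.10) and Tamalin (0.15), Cd36 like Itm2b (0.06) and Adss (0.07), and Lrp1 like the kinase gene Jak1 (0.12) and Inip (0.14). These distances are to be read against each receptor gene's own root mean square deviation from its mean. That was 0.11 for Cd36, 0.24 for Msr1, 0.30 for Lrp1, 0.47 for Cxcl16, 0.55 for Scarb2, 1.15 for Scarb1 and 2.11 for Cd68.

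Receptors outside the set gave no passing gene either. Of 8 tested other scavenger receptors, 3 were higher and 5 lower (median -0.27, and -0.13 with the covariate), none with an unadjusted p below 0.05. Mrc1, the mannose receptor gene, was at 1059, 198.8, 290.2 and 526.7 with acLDL, against 720.4 to 1145 in controls, a difference of -1.03 that was -0.18 with the covariate. Clec7a, the gene of the β-glucan receptor dectin-1, had a difference of -0.86, and -0.31 with the covariate. Of 12 tested genes of the LRP1 family and its chaperones, 6 were higher and 6 lower (median 0.030, and -0.15 with the covariate). An unadjusted p below 0.05 was found for 1 higher and 3 lower ones, against 7.42% and 8.93% of all tested genes. Lrp12, a relative of Lrp1, had a difference of -0.87, and -0.54 with the covariate, with acLDL library 1 at 136 among controls of 132 to 152.

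Genes that act with the receptors were mixed in direction. Of 14 tested genes of clathrin coats and endocytosis, 8 were higher and 6 lower (median 0.17, and 0.12 with the covariate). An unadjusted p below 0.05 was found for 1 in each direction, near the shares of 7.42% and 8.93% of all tested genes. Dab2, an endocytic adaptor that binds clathrin, was at 577.1, 763.7, 785.3 and 607.5 with acLDL and at 358.6, 371.7, 394.9 and 471.0 in controls. Its groups did not overlap, and the difference was 0.76 (SE 0.19, limma's adjusted p = 0.298) and 0.59 with the covariate. Clta, a clathrin light chain gene, had a difference of -2.02, and -0.27 with the covariate. Of 16 partners of CD36, 4 were higher and 12 lower (median -0.35, and -0.0093 with the covariate). An unadjusted p below 0.05 was found for 3 higher and 4 lower ones, against 7.42% and 8.93% of all tested genes. Itgb1, the β1 integrin gene, was higher in all acLDL libraries (0.54, and 0.29 with the covariate), and Tlr2, a Toll-like receptor gene, was at 453.7 in acLDL library 1 and at 111 or less in the other acLDL libraries (difference -2.84, and -0.63 with the covariate). Of 3 tested genes for release of CXCL16 from the membrane, Adam17, a sheddase gene, had a difference of 0.43 (0.21 with the covariate). Rhbdf2, which helps ADAM17 mature, had one of -1.46 (-0.87). Its values were 17.0, 0, 10.1 and 9.59 with acLDL and 14.1, 38.3, 53.1 and 24.2 in controls. It is near the floor and met the filter through the controls, so nothing is read from its difference. The median of the 3 tested genes was -1.07, and -0.24 with the covariate.

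Of 11 lysosomal partners of LIMP-2 and CD68, 2 were higher and 9 lower, with a median of -0.69 that was -0.19 with the covariate. Lipa, the lysosomal acid lipase that frees cholesterol from lipoprotein taken up, was at 1168, 825.0, 986.5 and 927.4 with acLDL and at 1440, 1727, 1433 and 1691 in controls. The groups did not overlap, and the difference was -0.69 (SE 0.17, limma's adjusted p = 0.298) and -0.56 with the covariate. Laptm5, a lysosomal membrane protein gene, had a difference of -1.44, and -0.57 with the covariate. Of 8 tested regulators of these receptors, 1 was higher and 7 lower (median -0.55, and -0.41 with the covariate). Srebf2, the gene of SREBP-2, which switches on sterol synthesis genes, was at 192.3 or less with acLDL and at 193.0 or more in controls, a difference of -1.16 that was -0.50 with the covariate. Mitf, a relative of TFEB, was at 48.0, 52.5, 85.0 and 57.0 with acLDL and at 126, 83.6, 97.5 and 117 in controls, a difference of -0.77, and -1.07 with the covariate. Without acLDL library 1, 5 of the lysosomal partners and 3 of the regulators passed limma's threshold, all lower, as did 14.4% of all tested genes.

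**Figure D4:**
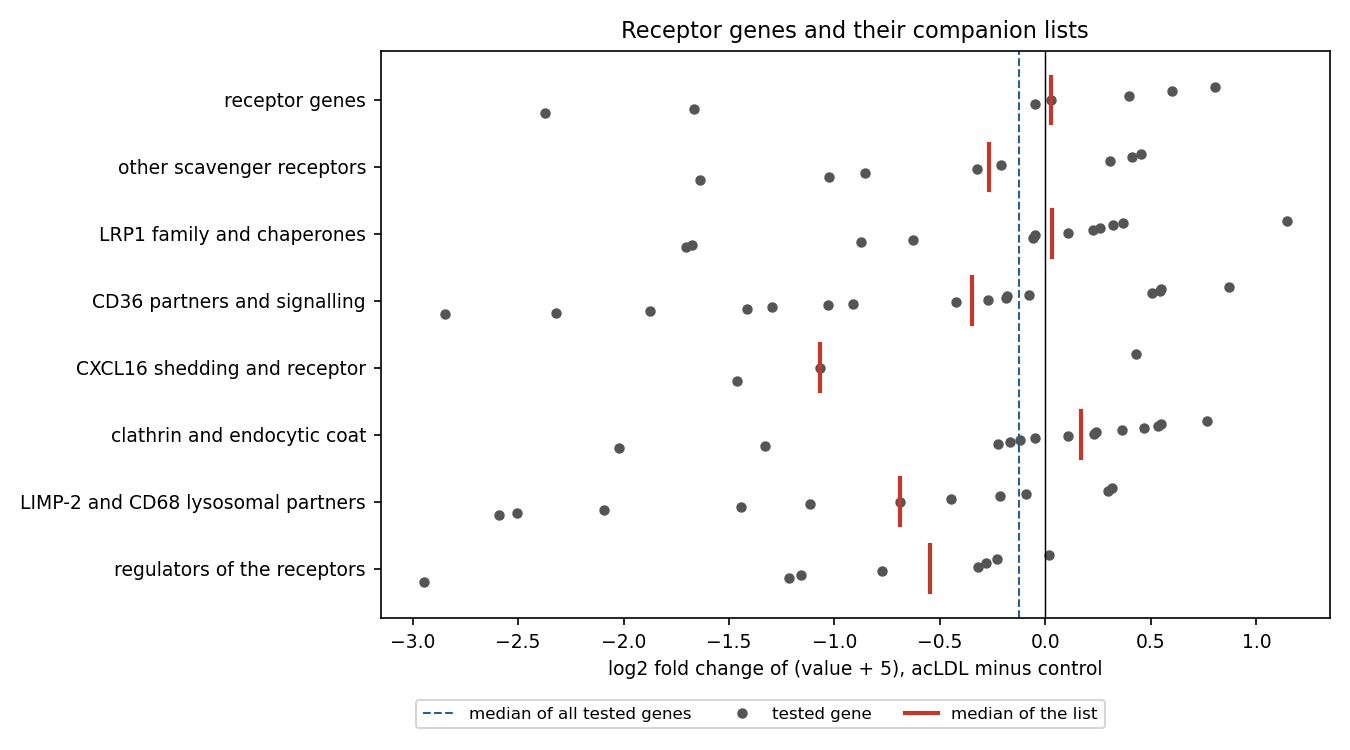
Log2 fold change of value + 5, acLDL minus control, of each tested receptor gene and of the tested genes in 7 companion lists (dots), with each list's median (red bar) and the median of all tested genes (dashed line). Medians run from -1.07 for the 3 genes of CXCL16 shedding to 0.17 for the clathrin list, and no gene shown passed the threshold.

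The cell type behind the label was checked with marker genes. All 13 dendritic cell markers and all 10 macrophage markers were among the genes of the table, with 11 and 10 tested. Itgax, which encodes CD11c itself, ranged between 0 and 188.7 in acLDL libraries, with libraries 2, 3 and 4 below every control and library 1 among the controls. The summed value of the dendritic cell markers was 34923 to 44718 with acLDL against 31245 to 35413 in controls, and H2-Eb1, an MHC class II gene, alone held 23144 to 44279 and 18386 to 26611 of it. Of the 11 tested dendritic cell markers, 2 were higher and 9 lower (median -1.26, and 0.061 with the covariate), and of the 10 macrophage markers 4 were higher and 6 lower (median -1.11, and -0.034). The summed value of the macrophage markers was 10920 to 15470 against 9985 to 10956. Among macrophage markers, Adgre1 was listed at 0 in acLDL libraries 2 and 3 and at 8.30 in control library 1, whereas Csf1r was at 8639 and 9634 in acLDL libraries 2 and 3 and at 3838 to 5577 in controls. The sum of 7 granulocyte markers was 472.6 to 10835 with acLDL against 5113 to 12741 in controls, with Ly6g and Elane not analysed here, and that of 4 monocyte markers 769.7 to 2372 against 2047 to 2769. Lymphocyte markers, 2 of 8 in the table, summed to 76.8 at most, and 2 erythroid and megakaryocyte markers to 65.0 to 1364 with acLDL against 750.6 to 1941 in controls. In bulk RNA, fewer cells of a type and less RNA per cell cannot be told apart, and the part of these markers in the differences of Scarb2, Cxcl16, Cd68 and Scarb1 was not tested.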

How the data were processed

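Poly(A) RNA was sequenced in 8 libraries. Per the labels' protocols, libraries were made with a Lexogen QuantSeq 3′ kit (the design text of the series says 5′). The tools named per the submitters' processing notes are bcl2fastq 2.20 and kallisto, with mm10 (GRCm38). The annotation, filters and normalization tool were not given in the sources used. The authors deposited 1 normalized signal per gene and library. The values are not whole, and none lies between 0 and 5. Only 8.32% to 13.4% of values under 60 fall on whole multiples of 1 step (tolerance 0.01 steps). The step was the best-fitting one for each library, so the 2% expected by chance for a step fixed in advance does not apply to it. Reads could not be recovered from these values. The depth in reads is therefore unknown, and no counting interval was computed.

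The 10091 genes that reached 10 in 4 or more libraries were tested with limma 3.58.1 in R 4.3.3 on log2(value + 5), with a variance trend, robust moderation and the group as the only term. P-values were adjusted over all tested genes (Benjamini-Hochberg, threshold 0.05), and the fit was tested on simulated data. The simulated noise was independent between genes and libraries and no larger than that of the median gene. That test therefore does not cover the short-transcript index or genes as variable as Cd68. Fold changes on the log2(value + 5) scale understate changes of low genes. Transcript lengths and coordinates came from GENCODE M21 (GRCm38), which gave a length for 89.1% of tested genes, and promoters from RefSeq (5 of the 8 symbols matched). The receptor genes and lists were chosen with earlier results of these data known. Named genes are the receptor genes, the 2 genes of each companion list with the smallest p where none passed, and the 2 tested genes nearest to each receptor gene in profile. Markers and overlapping genes are named besides. A gene that this rule takes is not reported here. The 18 alternatives are described in the closing section.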

Additional observations from a re-analysis of the deposited data

Results flagged for a closer look

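The 4 control values of Cxcl16 are unevenly spread. Control library 1, at 5967, stands apart from the other 3, at 3930.5 to 4254, and this gap is 0.841 of the whole range of the group. The control values of Ube2q1, the gene nearest to Msr1 in profile, show the same feature, with control library 3 at 1808 and the others at 1458 to 1497, a gap of 0.886 of the range. Gaps as large as this are expected by chance in about 1 of 20 groups of 4, and 2 were found in the 70 groups examined (35 genes).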

How the results depend on the processing

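Over 18 alternatives, Msr1, Scarb2 and Cxcl16 kept their direction in all, Scarb1 in the 17 that could be run, Cd68 in 16 of 17, Cd36 in 16 of 18 and Lrp1 in 11 of 18. Scarb1 and Cd68 could not be fitted among genes of at least 10 in all 8 libraries. Limma's unadjusted p for Msr1 was below 0.05 in some alternatives, such as 0.036 with a pseudocount of 1 and 0.049 with the short-transcript covariate. In others it was not, at 0.062 after median-of-ratios scaling, 0.089 after quantile normalization and 0.110 without trend and robust moderation. With the short-transcript covariate the sign turned for Cd36 (0.048), Lrp1 (-0.24) and Cd68 (0.0082), with median-of-ratios scaling for Lrp1 (-0.015), and without acLDL libraries 2 and 3 for Cd36 (0.056) and Lrp1 (-0.10). Leaving out each library, the difference ran from -0.10 to 0.14 for Lrp1, from -2.17 to -1.36 for Scarb1, 0.65 to 1.04 for Scarb2, 0.44 to 0.80 for Cxcl16 and -3.30 to -1.07 for Cd68. Scarb2 and Cxcl16 passed limma's threshold without acLDL library 1, and not when any other library was left out. Without acLDL library 1, 21.7% of all tested genes passed, 7.28% in the higher direction and 14.4% in the lower. Scarb1 passed in the same setting only, but nothing is read from that, as it met the filter through the controls. Group and short-transcript index cannot be told apart in that setting. The number of genes passing ran from 0 to 2190, with 0 to 735 higher and 0 to 1455 lower, the highest numbers being those without acLDL library 1. It was 1, a lower gene, after quantile normalization and 3, all higher, without trend and robust moderation. Why acLDL library 1 has this effect was not tested.

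The labels give the groups the same replicate numbers. With the replicate block no gene passed, as without it (smallest adjusted p = 0.483). The block leaves each difference as it was, 0.40 for Msr1, because the groups hold the same numbers. Limma's unadjusted p went from 0.039 to 0.122 for Msr1 and from 0.030 to 0.072 for Scarb1, both above 0.05. For Scarb2 it went from 0.021 to 0.042, still below 0.05. The number of genes below 0.05 went from 1650 to 730. Deviations of same-numbered libraries from their group means correlated at -0.55, -0.21, -0.28 and 0.03 over genes. No acLDL library correlated best with the control of its own number, so no pairing by number is seen in these values. The check cannot exclude a shared mouse or dish, because the libraries of each group also differ in the short-transcript index. Low values limit Scarb1, which is near the floor of the table, and Lrp1, whose interval is wide for its level.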
